A study of Mus musculus with 8 samples.

Results

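Skeletal muscle contraction genes are the genes of the sarcomere, of calcium handling and of muscle energy supply that mark striated fibres. In mouse dorsal skin such fibres form the panniculus carnosus, a thin sheet of muscle beneath the dermis. In each sarcomere, myosin of the thick filament pulls on actin of the thin filament once calcium from the sarcoplasmic reticulum binds troponin, and creatine kinase and glycolytic enzymes supply the ATP. Fast and slow fibres use different isoforms of myosin, the troponins and the myosin light chains.

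The 42 genes were chosen by symbol from a list of these functions, and 41 of them were found among the 18770 genes of the table. Myh7, the slow myosin heavy chain, was not analysed here. Poly(A) RNA was sequenced from dorsal skin at D4, the fourth day after depilation, and the skin was stripped of its interfollicular epidermis first. All mice were wildtype C57BL/6, 7 to 8 weeks old; 4 libraries came from mice given alpinetin (AP), a plant flavonoid, topically in ethanol, and 4 from vehicle controls (VC) given 65% ethanol. The libraries are numbered within each group (VC.1, AP.1 and so on), their values are given in that order, and none could be tied to a particular mouse. Values are normalized counts, which are read counts divided by a size factor for each library.

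One library stood apart from its group. AP.1 held muscle transcripts at the VC level or above, whereas AP.2, AP.3 and AP.4 held several-fold less, so calls and fold changes are given with and without AP.1. Leaving out AP.1 was one of 8 planned omissions, but the weight given to it was chosen after its values were seen, and the calls without it are a description. In its mitochondrial share AP.1 lay nearer the AP group: mitochondrially encoded genes took 11.1% of its reads, against 7.85% in AP.2, 5.32% in AP.3 and 10.3% in AP.4. In the VC libraries they took 54.3%, 44.9%, 42.1% and 52.3%. Total reads on listed genes ranged from 6454563 to 7264151 in VC and from 8507783 to 11190113 in AP.

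Summed over the 41 genes, muscle transcripts made up 0.637%, 1.17%, 0.746% and 0.540% of all reads in the VC libraries, against 1.98%, 0.282%, 0.176% and 0.315% in the AP libraries. AP.1 was the highest of the 8 libraries and the other AP libraries were the lowest. Because mitochondrial reads took such unequal shares, the sum was also set against the remaining reads. On that scale it was 1.40%, 2.13%, 1.29% and 1.13% in the VC libraries, against 2.22%, 0.306%, 0.186% and 0.351% in the AP libraries. Of all reads the group means were 0.774% ± 0.278 (SD, n = 4) for VC and 0.687% ± 0.861 (SD, n = 4) for AP, a 1.13-fold difference. Of the reads without mitochondrial genes they were 1.49% ± 0.441 (SD, n = 4) for VC and 0.766% ± 0.973 (SD, n = 4) for AP, a 1.94-fold difference. On both scales the SD in AP exceeded its mean. Without AP.1 the AP mean was 0.281% ± 0.0854 (SD, n = 3), 5.28-fold below VC; of all reads the difference was 3.0-fold. In bulk tissue, fewer muscle fibres in a sample and less muscle RNA per fibre cannot be told apart.

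**Figure D1:**
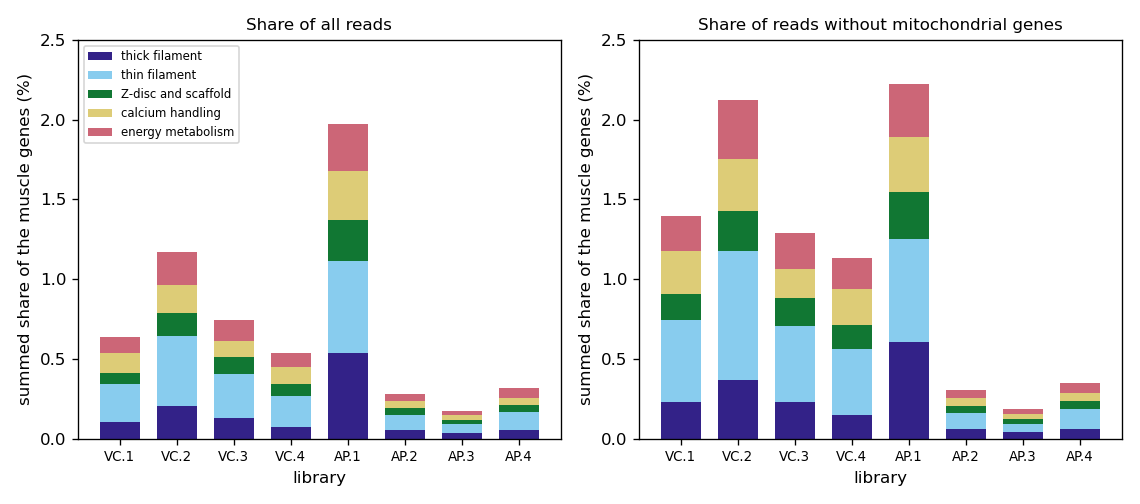
Summed share of the 41 muscle genes in each library, in percent of all reads (left) and of reads without mitochondrial genes (right), with bars stacked by role. AP.1 reaches 1.98% and 2.22%, and AP.2, AP.3 and AP.4 stay at or below 0.351% on both scales.

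Of the 41 genes, 40 passed the filter of at least 3 normalized counts in at least 4 libraries; the exception was Myl2. With all 8 libraries, 3 of the 40 were called lower in AP at an adjusted p under 0.05 by limma and none higher, beside 4.0% lower and 6.33% higher among all 15964 genes tested. At an unadjusted p under 0.05 limma gave 30 of the 40 as lower, beside 13.3% of all genes. On recovered reads edgeR and DESeq2 each gave 7 as lower at that level, beside 14.0% and 15.2% of all genes. Each called 1 at the adjusted level, beside 4.46% and 8.53%, and that gene was Tnnt1, which limma did not call. The median log2 fold change (AP over VC, on the log2(normalized count + 1) scale) was -1.67 for the 40 and 0.06 for all genes. The median for the 40 was -1.07 with DESeq2 and -1.08 with edgeR (all genes -0.01 with both), and -0.81 with total-read scaling, where that of all genes was 0.90. At the adjusted level, voom with sample weights called 24 of the 40 lower (median -1.94), beside 5.85% of all genes. They were Tnnc2, Casq1 and Pgam2, which limma called, with Acta1, Myh2, Tnnt1, Tnnt3, Tnni2, Mylpf, Tmod4, Atp2a1, Pvalb, Cacna1s and Trdn. The others were Actn2, Tcap, Myot, Myoz1, Smpx, Xirp2, Ckm, Eno3, Mb and Ampd1. Limma without a trend called 0, beside 1.35%, with 22 at an unadjusted p under 0.05, beside 12.4%. With the thresholds that the study's methods name (1.5 for the fold change, 0.01 for p without adjustment), applied to the limma fit, 11 of the 40 were lower, beside 5.32% of all genes. For none of the 40 did every AP library lie below every VC library, beside 8.91% of all genes. Below, a gene called or passing is one with a limma adjusted p under 0.05, unless another tool is named.

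Without AP.1 the counts were different. Of the 40, 36 were called lower at an adjusted p under 0.05 by limma, beside 5.12% of all genes, and none were higher, beside 6.78%. For 36 of the 40, every remaining AP library lay below the lowest VC library, beside 13.3% of all genes, and 36 met the thresholds of the study's methods, beside 6.24%. The median log2 fold change was then -2.39, against 0.06 for all genes. The 4 tested genes not called were Tnnt1, Tnni1, Tnnc1 and Myl3, all of them slow isoforms with few reads. Leaving out AP.2, AP.3, AP.4 or VC.2 in place of AP.1 left 0 of the 40 called lower by limma, beside 0.971%, 0.589%, 0.871% and 3.15% of all genes. They left 21, 18, 21 and 23 as lower at an unadjusted p under 0.05, beside 10.4%, 9.49%, 10.5% and 12.5% of all genes. Leaving out VC.1 left 1 called lower, Tnnt1, beside 1.63% of all genes. Leaving out VC.3 or VC.4 left 1, Casq1, beside 3.27% and 2.96%.

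**Figure D2:**
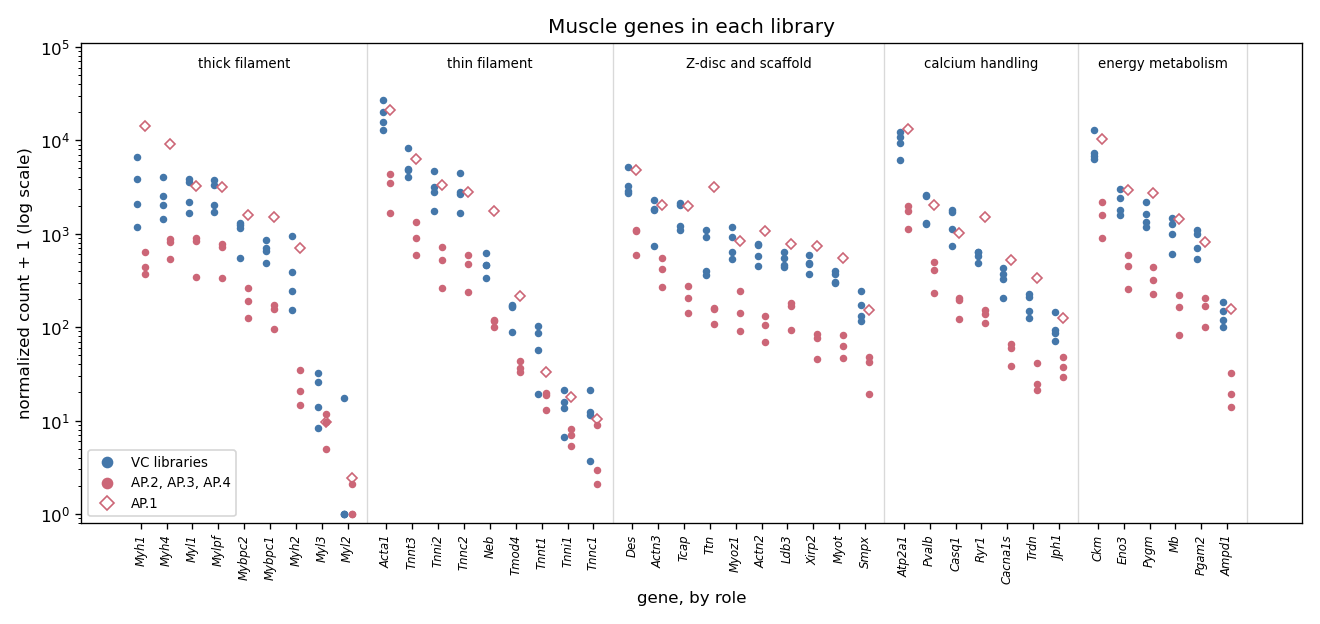
Normalized count + 1 (log axis) of each of the 41 muscle genes in each library, ordered by role and by mean level; blue points are VC, filled red points AP.2, AP.3 and AP.4, open red diamonds AP.1. For 36 of the genes the filled red points lie below every blue point, and the diamond lies within or above the blue points for all 41.

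Among the thick filament genes, Myh1, the fast IIx myosin heavy chain, had 2097, 6597, 3827 and 1181 normalized counts in the VC libraries, against 14048, 629, 365 and 441 in the AP libraries. AP.1 exceeded every VC library, and the other AP libraries lay below them all. Its mean was therefore higher in AP (3871 ± 6786, SD, n = 4) than in VC (3426 ± 2382, SD, n = 4), although its log2 fold change was -1.36 (SE 0.98, limma adjusted p = 0.375). Without AP.1 it was -2.59 (SE 0.47, limma adjusted p = 0.00934). Myh4, the fast IIb heavy chain, had 2505, 4034, 1423 and 2053 in the VC libraries, against 9027, 537, 806 and 883 in the AP libraries. The same order held, and its log2 fold change was -0.77 (SE 0.71, limma adjusted p = 0.493), or -1.68 (SE 0.31, limma adjusted p = 0.0102) without AP.1. For both genes edgeR and DESeq2 with all 8 libraries gave estimates above 0 (as they did for Ttn and Neb, and for no other of the 40), and for Myh4 so did scaling to total reads (0.10), where the median of all genes was 0.90, so that Myh4 lay below it.

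Myh2, the fast oxidative IIa heavy chain, was less abundant, with 242, 387, 950 and 150 in the VC libraries, against 703, 33.4, 19.9 and 13.6 in the AP libraries. Here AP.1 lay inside the VC range and the other AP libraries lay below it. The log2 fold change of Myh2 was the lowest of the 40 genes in the limma fit (with DESeq2 and edgeR on all libraries Casq1 was the lowest), at -2.71 (SE 1.02, limma adjusted p = 0.104) and -3.96 (SE 0.55, limma adjusted p = 0.00279) without AP.1. Myh1, Myh2 and Myh4 lie side by side in one cluster, at chr11:67200052-67224575, chr11:67171027-67197517 and chr11:67238029-67260446 of mm10. Their sequences are closely alike, so counts could be split between them.

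Myl1, a fast alkali light chain that stabilises the myosin neck, had 3851, 3597, 2160 and 1667 in the VC libraries, against 3259, 837, 340 and 888 in the AP libraries. Mylpf, the fast regulatory light chain, had 3338, 3730, 2037 and 1691 in the VC libraries, against 3132, 720, 332 and 784 in the AP libraries. For both light chains AP.1 sat among the VC libraries, and the groups did not overlap once it was left out. The log2 fold changes without AP.1 were -2.07 (limma adjusted p = 0.0091) for Myl1 and -2.16 (limma adjusted p = 0.00522) for Mylpf. With AP.1 they were -1.48 and -1.55, neither passing by limma, while voom with sample weights called Mylpf.

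The myosin binding proteins, which tether myosin along the thick filament, come in a fast and a slow form. Mybpc2, the fast form, had 1312, 1231, 545 and 1161 in the VC libraries, against 1604, 188, 123 and 258 in the AP libraries. Mybpc1, the slow form, had 484, 847, 654 and 694 in the VC libraries, against 1497, 171, 93.7 and 156 in the AP libraries. In both, AP.1 exceeded all VC libraries and the other AP libraries lay below them. With all libraries their log2 fold changes were -1.68 and -1.40, neither passing, and without AP.1 they were -2.46 and -2.26, both passing.

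In the thin filament, Acta1 (ENSMUSG00000031972, chr8:123891769-123894751), skeletal muscle alpha-actin, was the most abundant of the 41 genes in mean normalized count. It had 19870, 26816, 12919 and 15782 in the VC libraries, against 20882, 3513, 1683 and 4336 in the AP libraries. AP.1 lay inside the VC range, and the other AP libraries lay below every VC library. The log2 fold change was -1.92 (SE 0.61, limma adjusted p = 0.0628), and -2.62 (SE 0.36, limma adjusted p = 0.00279) without AP.1. Per kilobase of longest transcript, Acta1 also had the highest VC mean, 13034 normalized counts, followed by Tnnt3 at 5100 and Tnnc2 at 4140.

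Tnnc2 (ENSMUSG00000017300, chr2:164777161-164779967), fast troponin C, which binds the calcium that starts contraction, was one of the 3 genes called with all libraries. It had 2674, 4455, 2794 and 1669 in the VC libraries, against 2795, 478, 236 and 594 in the AP libraries. It fell in AP (log2 fold change -2.05, SE 0.59, limma adjusted p = 0.0497), just inside the threshold, yet AP.1 lay inside the VC range. Without AP.1 it was -2.75 (limma adjusted p = 0.00223). Over the alternatives run for it, its adjusted p ranged from 0.00223 to 0.157.

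Tnnt3, fast troponin T, which anchors troponin to tropomyosin, had 4879, 8215, 4843 and 4074 in the VC libraries, against 6345, 906, 591 and 1350 in the AP libraries. Tnni2, the fast inhibitory troponin, had 2798, 4643, 3177 and 1755 in the VC libraries, against 3347, 521, 263 and 727 in the AP libraries. The pattern matched that of Tnnc2, with AP.1 among the VC libraries, but neither passed with all 8 (log2 fold changes -1.86 and -1.94, limma adjusted p = 0.0603 and 0.0621). Without AP.1 their log2 fold changes were -2.56 and -2.65, both passing. Tnni2 and Tnnt3 are neighbours, at chr7:142441808-142444410 and chr7:142498836-142516009. The remaining thin filament genes of fast or mixed fibres were Neb (nebulin, which spans the filament) and Tmod4 (tropomodulin, which caps it). With all libraries their log2 fold changes were -1.06 and -1.30, neither passing by limma, while voom with sample weights called Tmod4. Without AP.1 they were -2.04 and -1.93, both passing by limma.

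Of the Z-disc and scaffold genes, all 10 had AP.2, AP.3 and AP.4 below the lowest VC library, beside 13.3% of all genes. Limma called all 10 lower without AP.1, beside 5.12%, but 0 with it, beside 4.0%. With all libraries 9 were lower at an unadjusted p under 0.05 by limma, beside 13.3%. Des, which encodes the intermediate filament desmin that links neighbouring Z-discs, had 2898, 5217, 2738 and 3206 in the VC libraries, against 4765, 1058, 596 and 1105 in the AP libraries. Actn3, the actin crosslinker of fast fibres, had 1812, 2304, 743 and 1853 in the VC libraries, against 2053, 416, 265 and 548 in the AP libraries. Tcap, the titin cap protein of the Z-disc, had 1210, 2010, 2121 and 1082 in the VC libraries, against 1971, 203, 142 and 275 in the AP libraries. For each of these AP.1 lay inside the VC range. Without AP.1 the log2 fold changes were -1.94 for Des, -1.98 for Actn3 and -2.94 for Tcap, and with it -1.33, -1.38 and -2.11. The others, Ttn, Actn2, Myot, Myoz1, Ldb3, Smpx and Xirp2, had log2 fold changes without AP.1 between -1.88 and -2.84. With all libraries these lay between -1.03 and -1.97, none passing by limma. Voom with sample weights called Actn2, Myot, Myoz1, Smpx and Xirp2 of these with all libraries.

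Calcium handling held the gene with the lowest limma adjusted p of the 40 with all libraries. Casq1 (ENSMUSG00000007122, chr1:172209894-172219868), the calcium store protein calsequestrin of the sarcoplasmic reticulum, had 1704, 1795, 737 and 1110 in the VC libraries, against 1011, 196, 120 and 203 in the AP libraries. It fell in AP (log2 fold change -2.25, SE 0.54, limma adjusted p = 0.0286), and its AP.1 value lay in the lower part of the VC range. Without AP.1 the log2 fold change was -2.89 (limma adjusted p = 0.00143). Over the alternatives run for it, the adjusted p ranged from 0.00143 to 0.0863.

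Atp2a1, the fast calcium pump SERCA1, had 10845, 12310, 6093 and 9456 in the VC libraries, against 13350, 1729, 1111 and 1961 in the AP libraries. Pvalb, the cytosolic calcium buffer parvalbumin of fast fibres, had 2547, 2583, 1314 and 1260 in the VC libraries, against 2050, 407, 232 and 501 in the AP libraries. AP.1 was above all VC libraries for Atp2a1 and inside their range for Pvalb. With all 8 libraries the log2 fold changes were -1.81 (limma adjusted p = 0.0766) and -1.70 (limma adjusted p = 0.0635), and without AP.1 they were -2.59 and -2.33, both passing. The triad genes Ryr1, the calcium release channel, and Cacna1s, its voltage sensor, and the junction genes Trdn and Jph1 were called lower without AP.1, with log2 fold changes from -1.33 to -2.62. With all libraries none of these 4 passed by limma, beside 4.0% of all genes lower. The log2 fold changes were -1.25 for Ryr1 (limma adjusted p = 0.217), -1.77 for Cacna1s (0.0958), -1.72 for Trdn (0.127) and -0.90 for Jph1 (0.180). Voom with sample weights called Cacna1s and Trdn lower there, beside 5.85%.

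Limma called all 6 energy metabolism genes lower without AP.1, beside 5.12% of all genes, and 1 with it, beside 4.0%. With all libraries voom with sample weights called all of them but Pygm lower, beside 5.85%. There DESeq2 and edgeR called none of them, beside 8.53% and 4.46%. Ckm, muscle creatine kinase, had 7307, 13031, 6288 and 6774 in the VC libraries, against 10217, 1572, 906 and 2206 in the AP libraries. Eno3, muscle enolase, had 2401, 3019, 1804 and 1581 in the VC libraries, against 2931, 448, 258 and 590 in the AP libraries. Pygm, glycogen phosphorylase, had 1339, 2178, 1184 and 1607 in the VC libraries, against 2731, 321, 225 and 438 in the AP libraries. AP.1 lay within the VC libraries for Ckm and Eno3 and above them for Pygm. Their log2 fold changes were -1.74, -1.67 and -1.50 with all libraries, none passing (limma adjusted p = 0.0747, 0.0802 and 0.124), and -2.45, -2.38 and -2.28 without AP.1, all passing.

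Pgam2 (ENSMUSG00000020475, chr11:5801640-5803733), muscle phosphoglycerate mutase, was the third gene called with all libraries. It had 986, 1102, 709 and 529 in the VC libraries, against 810, 166, 100.1 and 206 in the AP libraries. It fell in AP (log2 fold change -1.79, SE 0.51, limma adjusted p = 0.0477), with AP.1 inside the VC range and an adjusted p from 0.00197 to 0.132 over the alternatives. Without AP.1 it was -2.40 (limma adjusted p = 0.00197). The median log2 fold change of the 6 energy genes was -1.77 with AP.1 and -2.42 without. Mb (myoglobin, the oxygen store) and Ampd1 (AMP deaminase) had log2 fold changes of -2.01 and -1.98 with all libraries, neither passing by limma. Without AP.1 these were -2.84 and -2.72, both passing by limma.

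Fast isoforms made up nearly all of the isoform signal. Summed, the 13 fast genes had 39828, 55272, 30436 and 28602 normalized counts in the VC libraries, against 62541, 7543, 4776 and 9192 in the AP libraries. The 6 slow genes found had 566, 965, 819 and 780.0 in the VC libraries, against 1565, 201, 124 and 198 in the AP libraries. Most of the slow sum was Mybpc1, and without it the other slow genes took 0.109% to 0.622% of the fast and slow total in every library. Without AP.1, limma called all 13 fast genes and 1 of the 5 tested slow genes, Mybpc1, lower, beside 5.12% of all genes. The tested slow genes that limma did not call had few reads and log2 fold changes from -0.98 to -1.73, also below 0. DESeq2, edgeR and voom without AP.1 also called the slow gene Tnnt1. Limma with total-read scaling did not call the fast gene Myh4 there.

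The slow troponins had few reads. Tnnt1, slow troponin T, had 18.2, 85.7, 101 and 56.3 in the VC libraries, against 31.9, 11.9, 17.9 and 18.6 in the AP libraries. Its limma log2 fold change was -1.49 (adjusted p = 0.09) with all libraries and -1.73 (adjusted p = 0.0734) without AP.1, and over the alternatives its adjusted p ranged from 0.00878 (DESeq2) to 0.357 (total-read scaling). Tnni1, the slow inhibitory troponin, had 12.7, 14.8, 20.5 and 5.63 in the VC libraries, against 16.7, 4.31, 5.98 and 7.15 in the AP libraries, and its limma log2 fold change of -0.63 (-0.98 without AP.1) was the closest to 0 of the 40. Tnnc1, slow troponin C, had 20.01, 10.3, 2.73 and 11.3 in the VC libraries, against 9.43, 1.08, 1.99 and 7.87 in the AP libraries. The log2 fold change of Tnnc1 was -1.06, or -1.42 without AP.1, neither passing. The groups overlapped for all 3 genes, with or without AP.1. Myl2, the slow regulatory light chain, had 16.4 in VC.3, 1.45 in AP.1, 1.08 in AP.2 and 0 elsewhere.

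Fast and other isoforms were compared within each library as log2 ratios of normalized counts, each with 1 added, so ratios to the low slow genes depend on that added count. Of the 7 pairs, 5 could be tested, since Myh7 was not analysed and Myl2 had at most 3 reads in each AP library. The log2 ratio of Tnni2 to Tnni1 was 7.67, 8.20, 7.21 and 8.05 in the VC libraries, against 7.56, 6.62, 5.24 and 6.48 in the AP libraries. AP.1 lay inside the VC range and the other AP libraries below it, with a mean difference of -1.31 between the groups (exact permutation test, 2-sided p = 0.0571, adjusted p = 0.143 over 5 pairs). The log2 ratio of Myh4 to Myh2 was 3.37, 3.38, 0.58 and 3.77 in the VC libraries, against 3.68, 3.97, 5.27 and 5.92 in the AP libraries. VC.3, with the most Myh2, was low, and AP exceeded VC by 1.94 on average (exact permutation test, 2-sided p = 0.0571, adjusted p = 0.143), or by 1.21 without VC.3. The pairs Tnnt3 with Tnnt1, Tnnc2 with Tnnc1, and Mybpc2 with Mybpc1 gave mean differences of -0.37, -0.99 and -0.28, with exact permutation p-values of 0.629, 0.314 and 0.514. Without AP.1 the mean differences were -1.67 for Tnni2 with Tnni1, 2.28 for Myh4 with Myh2, and -0.83, -1.32 and -0.20 for the other 3. No pair passed, and 70 assignments of 4 libraries against 4 allow a p no smaller than 0.0286, or 0.0571 without AP.1.

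In AP.1 the difference from VC varied with transcript length. The 9 genes with a longest transcript of 5000 nt or more exceeded the VC mean by a median of 1.36 on the log2 scale in AP.1, and the tested genes under 2000 nt by 0.19. This grouping was chosen after the values of AP.1 were seen. Across the 40 genes, which are not independent replicates, Spearman's rho between length and the difference from VC was 0.81 in AP.1, 0.09 in AP.2, 0.21 in AP.3 and -0.31 in AP.4. Over 15962 genes the same rho was 0.18 in AP.1, 0.26 in AP.2, 0.26 in AP.3 and 0.16 in AP.4.

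Ttn, Neb and Ryr1, the 3 longest transcripts of the 41, were named after their values were seen. Ttn, the giant spring protein titin, had 397, 1088, 931 and 360 in the VC libraries, against 3148, 158, 155 and 106 in the AP libraries. Neb had 626, 463, 462 and 338 in the VC libraries, against 1732, 119, 99.6 and 116 in the AP libraries. Ryr1 had 637, 641, 572 and 488 in the VC libraries, against 1496, 153, 138 and 111 in the AP libraries. For all 3, AP.1 exceeded the highest VC library more than 2-fold. With all libraries the limma log2 fold changes were -1.03 for Ttn and -1.06 for Neb, neither passing, but DESeq2 gave 0.36 and 0.13 and edgeR 0.34 and 0.12. The summed count of long over short genes was 0.167, 0.226, 0.251 and 0.170 in the VC libraries, against 0.628, 0.220, 0.386 and 0.180 in the AP libraries.

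**Figure D3:**
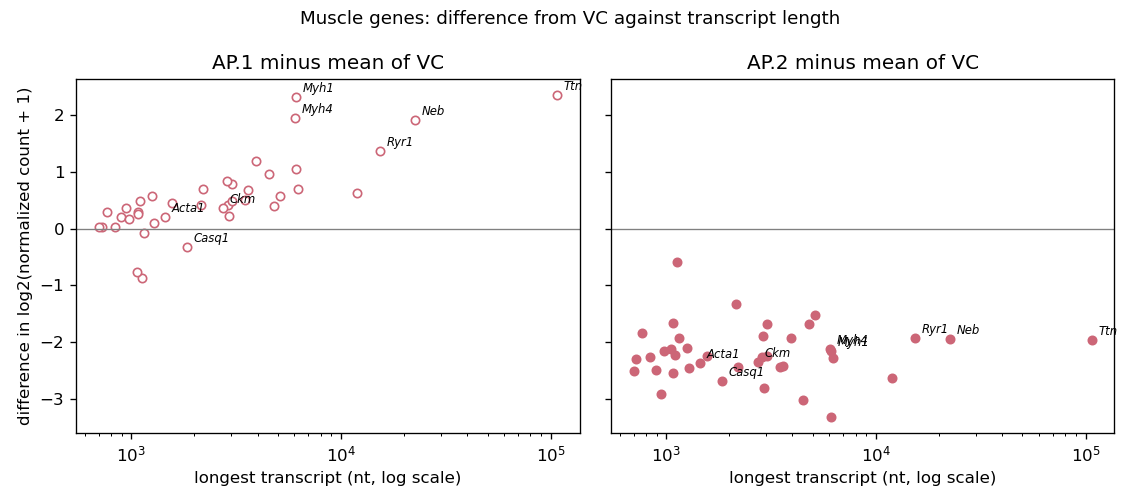
Difference in log2(normalized count + 1) from the mean of the 4 VC libraries against longest transcript length (nt, log axis) for the 40 tested muscle genes, in AP.1 (left) and AP.2 (right), 1 point per gene. In AP.1 the difference is larger for longer transcripts (rho 0.81), and in AP.2 all 40 genes lie below 0 with a rho of 0.09.

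Other muscle genes were taken by list. Of 36 other fibre genes, limma called 3 lower with all libraries (Myoz2, Hrc and Jsrp1, in order of p), beside 4.0% of all genes. Without AP.1 it called 30 lower, beside 5.12%. The median log2 fold changes of the list were -1.44 and -2.22. With all libraries 2 of the list lay above 0, Casq2 (0.10) and Pln (2.51), neither passing by limma, and Pln stayed above 0 without AP.1 (2.56). For Myoz2 the AP.1 value lay below every VC library, unlike the 41 members. Tpm2, the beta-tropomyosin that lies along actin, had 4233, 8506, 4806 and 4174 in the VC libraries, against 6126, 1604, 1139 and 1941 in the AP libraries. For Tpm2 limma gave a log2 fold change of -1.26 (adjusted p = 0.0833), or -1.76 (limma adjusted p = 0.00522) without AP.1. Of 6 atrophy ubiquitin ligases and related genes, limma called 4 lower without AP.1, beside 5.12% of all genes, and 0 with it, beside 4.0%. With all libraries 3 were lower at an unadjusted p under 0.05, beside 13.3%. Of 10 satellite cell and myoblast regulators, 6 were tested. Without AP.1 limma called 1 lower, Myf6, which is expressed in mature fibres, beside 5.12% of all genes. With all libraries it called 0, beside 4.0%, and 2 were lower at an unadjusted p under 0.05, beside 13.3%. Neither the 4 tested embryonic fibre genes nor the 8 tested neuromuscular junction genes gave a call by limma with or without AP.1. With all libraries, 0 and 3 of them had an unadjusted p under 0.05 in either direction. Of the 3, Chrnb1 and Rapsn were lower in AP, beside 13.3% of all genes lower at that level. Lrp4 was higher, and the share of all genes higher at that level is not given here. Cardiac markers were low: Nppa and Myl7 were not listed, and the 6 others summed to 35.6 to 73.7 normalized counts in every library.

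The 10 genes outside the muscle lists whose levels were most like the mean of the members over the 8 libraries had a Pearson's r from 0.977 to 0.994 among 11181 genes. These were H19, Eef1a2, Rabep2, Gm37759, A930016O22Rik, Tmem38a, Mypn, Fgf2, Scn4a and Adssl1. The 8 libraries share the contrast of AP.2, AP.3 and AP.4 with the rest, so r is a description only. Of the 10, 3 overlap a member on the opposite strand: Rabep2 with Atp2a1, A930016O22Rik with Ckm, and Gm37759 with Cacna1s. Strand use in counting is not given in the sources used here, so reads of such genes and members cannot be told apart. In all, 18 of the 41 members overlap another listed gene.

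Markers of other tissue moved with the groups too, and their part in the muscle result was not tested. The counts below stand beside 6.33% of all genes called higher and 4.0% called lower by limma with all libraries. Of 8 suprabasal keratinocyte genes, 7 rose in AP by limma, and their sum was 5497, 11828, 8066 and 5248 in the VC libraries, against 41157, 39191, 115713 and 163264 in the AP libraries, with Krt10 the most abundant. Of 9 smooth muscle genes, 5 rose, including Myh11, and the sum was 1899, 2132, 2533 and 2659 in the VC libraries, against 4996, 7271, 3268 and 4235 in the AP libraries, with Acta2 the most abundant. For both lists AP.1 lay above every VC library, and it did so for 16 of the 41 muscle genes, lying inside the VC range for the other 25. Of 12 tested mitochondrially encoded genes limma called 10 lower. The others, mt-Co1, the most abundant, and mt-Cytb, did not pass, with log2 fold changes of -3.37 and -3.38. For both, every AP library lay below every VC library. Of 6 basal keratinocyte genes 3 rose, with sums of 24117, 78089.7, 46699.9 and 21902 in the VC libraries, against 49171, 52381, 94066 and 138232 in the AP libraries, Krt14, the most abundant, not passing. Of 5 endothelial genes 2 rose, with sums of 749, 589.6, 1244 and 1316 in the VC libraries, against 2054, 5014, 1873 and 1925 in the AP libraries, Pecam1 being the most abundant. With all libraries limma called none of 7 fibroblast, 6 adipocyte and 5 leukocyte genes, and without AP.1 it called Dpt lower. Of these lists 2, 1 and 3 genes had an unadjusted p under 0.05 in either direction with all libraries. Dpt, Cd68 and Adgre1 were lower in AP at that level, beside 13.3% of all genes lower. Pdgfra, Plin1 and Cd3e were higher, and the share of all genes higher at that level is not given here. Without AP.1, 6 suprabasal, 4 smooth muscle, 3 basal and 2 endothelial genes were called higher, beside 6.78% of all genes. There, 10 mitochondrially encoded genes were called lower, beside 5.12%.

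The promoters of the most abundant members are shown as sequence only, and any part of them in the muscle result was not tested. RefSeq promoter entries of 300 bases (GRCm38.p6) matched 32 of the 42 genes, with 39 entries. CAGCTG, an E-box that reads the same on both strands, was in 48.7% of the 39 and in 16.3% of all 32851 entries. TATAAA on either strand was in 17.9% and 13.6%, the MEF2 motif in 15.4% and 3.19%, and the CArG box in 12.8% and 1.63%; a MEF2 match can contain TATAAA. A match is a description of letters only. Capitals mark the motifs in Acta1 (chr8:123894726-123895025, minus strand), Atp2a1 (chr7:126463024-126463323, minus strand) and Ckm (chr7:19410844-19411143, plus strand), written 5′ to 3′.
Acta1: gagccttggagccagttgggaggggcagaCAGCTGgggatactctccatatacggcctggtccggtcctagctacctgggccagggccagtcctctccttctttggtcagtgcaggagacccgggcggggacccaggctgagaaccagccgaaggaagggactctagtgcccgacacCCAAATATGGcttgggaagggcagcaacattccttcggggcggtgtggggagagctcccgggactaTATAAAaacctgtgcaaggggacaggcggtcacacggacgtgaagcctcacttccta
Atp2a1: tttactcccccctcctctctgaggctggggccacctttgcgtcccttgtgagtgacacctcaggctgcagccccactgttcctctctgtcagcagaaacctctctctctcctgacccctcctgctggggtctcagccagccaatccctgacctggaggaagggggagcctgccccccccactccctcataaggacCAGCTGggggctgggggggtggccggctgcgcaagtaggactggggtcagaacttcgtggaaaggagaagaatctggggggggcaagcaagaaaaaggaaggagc
Ckm: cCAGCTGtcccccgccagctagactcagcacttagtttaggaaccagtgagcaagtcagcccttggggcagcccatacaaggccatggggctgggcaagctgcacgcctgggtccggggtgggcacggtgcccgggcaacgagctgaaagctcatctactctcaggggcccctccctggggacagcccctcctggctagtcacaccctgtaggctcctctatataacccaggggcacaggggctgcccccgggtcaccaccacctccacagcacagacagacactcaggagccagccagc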

How the data were processed

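Messenger RNA of 8 libraries was used. The authors aligned reads to mm10 with STAR, counted them per gene (featureCounts in the methods, HTSeq in the submitters' processing notes) and normalized them with DESeq2. The deposited signal values are counts divided by 1 size factor per library. All 150160 values were whole multiples of 1 step per library within 0.01 reads (100% whole), so reads were recovered. The authors' columns of their own comparison (mean, fold change, its error, test statistic and p-values) were not used. Raw reads were not used here.

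The 15964 genes that reached 3 normalized counts in 4 or more libraries were compared on log2(value + 1) with limma 3.58.1 in R 4.3.3, using moderated variances with a trend on mean level, 2-sided, with Benjamini-Hochberg adjustment over all of them. The fold change understates the change of low genes. edgeR 4.0.16 and DESeq2 1.42.0 on recovered reads, other scalings, filters, pseudocounts (0.5 and 5) and each library left out were alternatives. Fits without AP.1 by other tools and scalings, and the grouping by length, were chosen after seeing the data. Isoform ratios were tested by exact permutation. The limma step was tested on simulated data. Coordinates and lengths came from GENCODE M21.

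The members and lists were chosen with earlier results of these data known. Genes named with values are the 3 most abundant and all called members of each role, both genes of each isoform pair and the members with the extreme fold changes; other genes named, such as Ttn, Neb, Ryr1, Tpm2 and Myf6, were chosen after their values were seen. Each library had 6454563 to 11190113 reads, and 3 reads were taken as the floor. That floor covers counting error only. The authors give 4 mice for each group.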

Additional observations from a re-analysis of the deposited data

Results flagged for a closer look

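Within a group of 4, a library was singled out when its gap to the nearest other took more of the group's range than the 95% critical value of Dixon's test allows. Of 118 groups tested, 42 passed, in 37 of them with AP.1 highest. A rate of 1 in 20 by chance holds for independent, normally distributed values. Most of these groups are unlogged counts or percents of genes that moved together, so that rate cannot be applied to them. The groups share libraries, so they are not independent.

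AP.1 was far above the other AP libraries for 20 of the 25 named muscle genes. Its gap was 0.981 of the range for Myh1, 0.971 for Myh2, 0.959 for Myh4, 0.945 for Mybpc1, 0.909 for Mybpc2 and 0.839 for Mylpf. In the thin filament it was 0.862 for Acta1, 0.868 for Tnnt3, 0.860 for Tnnc2 and 0.8497 for Tnni2. At the Z-disc it was 0.927 for Tcap, 0.878 for Des and 0.842 for Actn3. For calcium handling it was 0.931 for Atp2a1, 0.907 for Casq1 and 0.852 for Pvalb. For energy metabolism it was 0.915 for Pygm, 0.876 for Eno3, 0.860 for Ckm and 0.851 for Pgam2.

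The summed shares gave the same library. AP.1 had a gap of 0.923 for all muscle genes in percent of all reads and 0.919 in percent of reads without mitochondrial genes. By role these were 0.967 and 0.963 for the thick filament, 0.883 and 0.879 for the thin filament, 0.930 and 0.925 for the Z-disc, 0.943 and 0.938 for calcium handling, and 0.892 and 0.888 for energy metabolism. Among list sums AP.1 stood out for fast genes (0.924), slow genes (0.947), other fibre genes (0.905), atrophy ligases (0.892) and embryonic fibre genes (0.848).

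The remaining 5 were VC.2 for Ckm (0.849) and for the energy metabolism share of reads without mitochondrial genes (0.830), VC.3 for Myl2 (1.0, the other VC libraries being at 0) and for the ratio of Myh4 to Myh2 (0.875), and AP.2 for the endothelial sum (0.942). On the log2 scale only 3 of the 25 named genes passed, so most flags of single genes depend on the unlogged scale. Causes were not tested.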

How the results depend on the processing

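No paired analysis was possible because the labels pair no AP library with a VC library.

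The count of muscle genes lower in AP, 3 with all libraries by limma, was 1 with DESeq2, edgeR, no filter, a pseudocount of 0.5, scaling to reads without mitochondrial genes or total-read scaling, beside 8.53%, 4.46%, 3.01%, 3.83%, 3.38% and 0.438% of all genes. That gene was Tnnt1 with DESeq2 and edgeR and Casq1 with the others. It was 0 without a trend, 11 with the thresholds of the study's methods and 24 with voom and sample weights, beside 1.35%, 5.32% and 5.85%. Leaving out 1 library gave 0 to 36, beside 0.589% to 5.12% of all genes, with 36 without AP.1, beside 5.12%. Without AP.1, in fits added after the data were seen, it was 37 with DESeq2, edgeR or voom (beside 9.77%, 5.69% and 9.33% of all genes), 36 with upper-quartile scaling or scaling to reads without mitochondrial genes (6.40% and 4.40%), and 34 with total-read scaling (1.15%). The cause was not tested.

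Over all genes, 639 were lower and 1011 higher. DESeq2 gave 1362 and 1677, and limma without a trend 216 and 376. Total-read scaling gave 70 and 8657; over all genes it moved the median from 0.06 to 0.90 (log2). Leaving out 1 library gave 94 to 817 lower and 209 to 1082 higher. Without AP.1, DESeq2 gave 1560.0 and 1718, total-read scaling 183 and 7562, voom 1489 and 1597, and upper-quartile scaling 1022 and 935. With all libraries, voom with sample weights gave 934 and 858, so more were lower than higher in these last 2 fits. The cause was not tested.

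Of the 40 genes, signs reversed for Ttn with DESeq2 (0.36) and edgeR (0.34), for Neb with DESeq2 (0.13) and edgeR (0.12), for Myh1 with DESeq2 (0.18) and edgeR (0.16), for Myh4 with DESeq2 (0.17), edgeR (0.16) and total-read scaling (0.10), and for Tnni1 with total-read scaling (0.14). Under total-read scaling the median gene was at 0.90, so Myh4 and Tnni1 stayed below it. The log2 ratio of Tnnt3 to Tnnt1 reversed without VC.1 (0.10) and without AP.3 (0.04); over all omissions it ranged from -0.83 to 0.10. Of the named genes' other values, 399 kept direction and side of the threshold, 32 came to pass and 36 ceased to. Of the other lists' medians, 268 stayed within 1 SD and 12 moved further.

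A library's floor of 3 reads was 1.49 to 5.63 normalized counts, so slow troponins and Myl2 were measured with few reads. The groups differed in depth and in mitochondrial share, whose part in the result was not tested.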
